A study of Mus musculus with 9 samples.

Results

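Vwf, Ggt5, Klf4 and Col5a3 are grouped here as genes of blood vessels and connective tissue, though Klf4 is also a factor of epithelia and monocytes. They were followed in 9 tumours grown from EL4 cells, a mouse T-cell lymphoma line. The members were 4 rows, given by their Ensembl identifiers, of a count table with 56923 rows. The study compared 5 tumours of the genotype labelled Vec with 4 labelled HVEM-KO. HVEM is the receptor encoded by Tnfrsf14, and the study asks what HVEM on leukaemia cells does to CD8 T cells. The labels name no clone, host strain, age, sex, day or batch, and do not say whether each tumour came from its own animal, so spread between libraries may be partly technical. The members were chosen with results of the comparison of HVEM-KO with Vec in view. Their difference between the groups is therefore given as a description, without a test.

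Vwf encodes von Willebrand factor, a glycoprotein that endothelial cells and megakaryocytes store in granules and release to bind platelets and coagulation factor VIII. Klf4 encodes a zinc finger transcription factor of endothelium, epithelia and monocytes. Ggt5 encodes a gamma-glutamyltransferase of the cell surface, which cleaves glutathione conjugates such as leukotriene C4. Col5a3 encodes the alpha 3 chain of type V collagen, a minor fibrillar collagen that assembles with collagen I. None of these genes is a lineage marker of T cells, and a tumour sample holds host vessels, connective tissue and leukocytes beside the EL4 cells.

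The gene that a row counted was inferred, since most nuclear rows were displaced along their chromosome. The Klf4 row (ENSMUSG00000003032) and the Vwf row (ENSMUSG00000001930) carried the identifiers of these genes. The row on Ggt5 (ENSMUSG00000001666) carried the identifier of Ddt, and the row on Col5a3 (ENSMUSG00000004100) that of Ppan. The rows deposited under the identifiers of Ggt5 and Col5a3 themselves held 15 and 28 reads over all libraries, and the first of these lay on Upb1. In GRCm38, Vwf lies on chromosome 6 from 125546774 to 125686679 on the plus strand, and Klf4 on chromosome 4 from 55527143 to 55532466 on the minus strand. Ggt5 lies on chromosome 10 from 75589340 to 75617200 on the plus strand, and Col5a3 on chromosome 9 from 20770050 to 20815067 on the minus strand.

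The fitted displacement was 30 bp for the stretch of rows that holds Klf4, -23050 bp for that of Vwf, -88720 bp for that of Col5a3 and -164160 bp for that of Ggt5. Over the 786 rows of the Klf4 stretch, the correlation across rows between log overlap with coding genes and log reads was 0.752, both at the fitted displacement and without displacement. It was 0.751 against 0.569 without displacement over the 2537 rows around Vwf, 0.771 against 0.555 over 1003 rows around Col5a3, and 0.751 against 0.492 over 1642 rows around Ggt5. The displacement was fitted to these counts, so the higher values follow in part from the fit, and rows are not independent replicates.

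At these displacements the Klf4 row covered 2879 bp of the exons of protein-coding transcripts of its gene, the Vwf row 907 bp, the Col5a3 row 485 bp and the Ggt5 row 180 bp. No annotated exon of another gene lay under any of the 4 rows. The exons of the Vwf row held 16064 bp in all, of which 94.1% lay within the span of Vwf, most of it outside the exons of that gene. A shift of up to 50 bp either way left between 820 and 1067 bp on Vwf and between 477 and 531 bp on Col5a3, but between 80 and 243 bp on Ggt5. The Ggt5 row is thus the least firmly placed of the 4. The Col5a3 and Ggt5 rows lay on the strand opposite to the gene, and how the authors' counting treated strand is not given in the sources used here. Levels are compared between tumours within a row, never between rows.

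RefSeq promoter sequences of GRCm38.p6 were found for 2 of the 4 genes, Klf4 and Col5a3, and are shown for that reason only. Each is the 200 bases furthest upstream in the promoter window, 5′ to 3′ on the gene's strand, from chr4:55532526-55532725 and chr9:20815118-20815317, both on the minus strand. Capitals mark the GC box, GGGCGG or its reverse complement CCGCCC, the element bound by Sp and KLF family factors.
Klf4: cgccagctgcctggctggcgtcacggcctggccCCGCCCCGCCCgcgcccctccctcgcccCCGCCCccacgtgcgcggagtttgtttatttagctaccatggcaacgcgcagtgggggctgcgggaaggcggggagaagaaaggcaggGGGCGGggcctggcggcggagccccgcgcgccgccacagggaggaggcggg
Col5a3: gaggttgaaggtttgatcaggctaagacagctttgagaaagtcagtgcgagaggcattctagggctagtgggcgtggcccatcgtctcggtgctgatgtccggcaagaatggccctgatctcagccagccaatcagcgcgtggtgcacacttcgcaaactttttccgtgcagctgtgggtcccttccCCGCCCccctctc
The Klf4 window held 4 GC boxes on both strands together, a pair of them overlapping, and the Col5a3 window held 1. A GC box was present in 24.8% of 32544 promoter windows of this length. The Klf4 window also held 1 E box (CACGTG), present in 4.34% of windows. The CACCC box, present in 44.5%, was in neither window. These letters describe the windows and show no binding.

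Total counts ran from 5532155 to 8205620 per library. On the first dimension of a multidimensional scaling, with 37.7% of the variance of its distances, Vec 1 was placed at 1.36, Vec 5 at 1.5 and the remaining 7 libraries between -1.22 and 0.46. Mitochondrial rows held 6.8% and 6.34% of the reads in Vec 1 and Vec 5, and between 5.94% and 13.7% in the others. The mean log2 CPM of 14 fibroblast and matrix genes was 6.52 and 6.58 in Vec 1 and Vec 5, the lowest of the 9, then 6.85 in HVEM-KO 4, and highest at 8.57 in HVEM-KO 2 and 8.85 in HVEM-KO 3. The targeted gene, Tnfrsf14, was not analysed here, so the genotype labels were not checked against it. Results are given with and without Vec 1 and Vec 5. In bulk tumours, fewer cells of a type and less RNA per cell cannot be told apart.

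**Figure D1:**
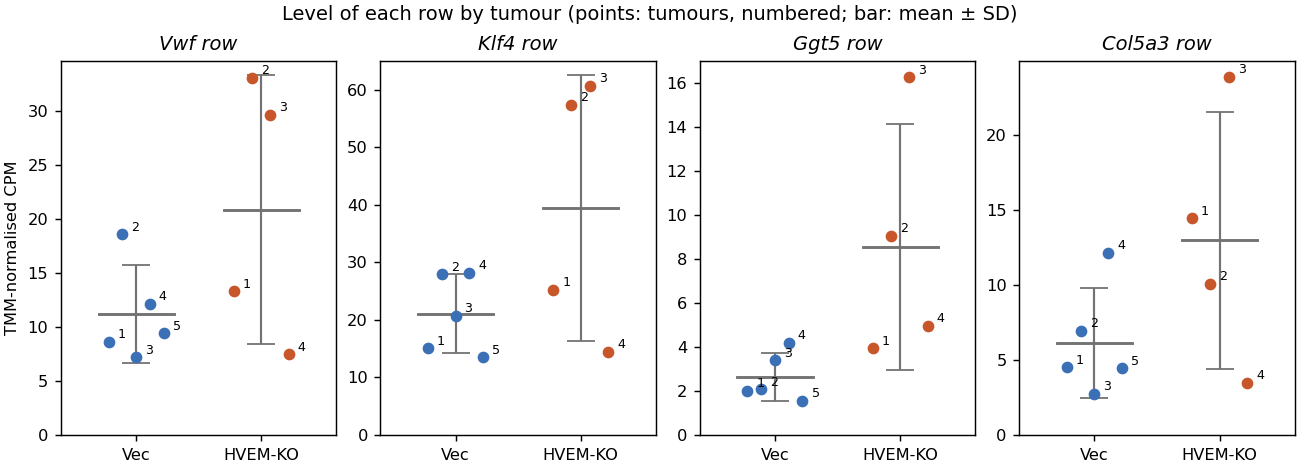
TMM-normalised CPM of the 4 rows in each tumour (points, numbered by replicate; Vec in blue, n = 5, HVEM-KO in orange, n = 4), with the mean and SD of each group. HVEM-KO 2 and 3 are above every Vec tumour for Vwf, Klf4 and Ggt5, while HVEM-KO 4 lies among the Vec tumours for Vwf, Klf4 and Col5a3.

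The Vwf row was at 8.65, 18.57, 7.18, 12.14 and 9.41 CPM in Vec 1 to 5 and at 13.3, 33.08, 29.61 and 7.47 CPM in HVEM-KO 1 to 4. HVEM-KO 2 and 3 were above all Vec tumours, HVEM-KO 4 was lower than all of them but Vec 3, and the groups overlapped. The Vec mean was 11.2 ± 4.501 CPM (SD, n = 5) and the HVEM-KO mean 20.9 ± 12.4 CPM (SD, n = 4), with a log2 fold change of 0.90 ± 0.41 (SE). Leaving out HVEM-KO 2 gave 0.59, and leaving out Vec 1 and Vec 5 gave 0.73 ± 0.52.

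A second row on Vwf (ENSMUSG00000038115, deposited as Ano2) covered 150 bp of its exons with 343 reads. It was at 4.39, 8.16, 3.66, 4.49 and 4.28 CPM in Vec and at 4.11, 12.43, 6.91 and 6.14 CPM in HVEM-KO tumours. HVEM-KO 2 was again the highest tumour and Vec 3 the lowest. Its log2 fold change was 0.57 ± 0.35. Over the 9 tumours its log2 CPM followed that of the first row with r = 0.791 and rho = 0.700.

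The Klf4 row was at 15.04, 27.94, 20.77, 28.17 and 13.52 CPM in Vec 1 to 5 and at 25.29, 57.44, 60.69 and 14.44 CPM in HVEM-KO 1 to 4. HVEM-KO 2 and 3 stood at about the same level, each above 57 CPM, and the other 7 tumours were below 29 CPM. The Vec mean was 21.1 ± 6.91 CPM and the HVEM-KO mean 39.5 ± 23.1 CPM, with a log2 fold change of 0.90 ± 0.38. It was 0.62 ± 0.45 without Vec 1 and Vec 5, and between 0.62 without HVEM-KO 3 and 1.18 without HVEM-KO 4 when 1 tumour was left out. With 1659 reads this row had the most reads of the 4, and it is the one whose name rests on no displacement of note.

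The Ggt5 row was at 2.01, 2.08, 3.4, 4.19 and 1.54 CPM in Vec 1 to 5 and at 3.94, 9.07, 16.28 and 4.98 CPM in HVEM-KO 1 to 4. Of the 4 HVEM-KO tumours 3 were above every Vec tumour, and HVEM-KO 1 was lower than Vec 4 only. The means were 2.64 ± 1.11 CPM and 8.57 ± 5.60 CPM, a log2 fold change of 1.68 ± 0.44, which was 1.40 ± 0.50 without Vec 1 and Vec 5 and 1.17 without HVEM-KO 3. These values rest on 9 to 28 reads per Vec library and 24 to 99 per HVEM-KO library.

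Other rows on Ggt5 differed less between the groups. The row deposited as Gstt3 (ENSMUSG00000001665) covered 2174 bp of Ggt5 exons, more than any other row, with 506 reads. It was at 5.01, 9.89, 5.75, 11.54 and 3.77 CPM in Vec and at 7.39, 12.6, 19.9 and 4.15 CPM in HVEM-KO tumours. HVEM-KO 4 lay here among the lowest tumours and Vec 2 among the higher ones, unlike in the member row. Its log2 fold change was 0.62 ± 0.44, and 0.29 ± 0.48 without Vec 1 and Vec 5. The 2 rows correlated with r = 0.738 and rho = 0.700 over the 9 tumours, and with r = 0.594 over the 7 without Vec 1 and Vec 5. Another row with reads (ENSMUSG00000112789, 69 bp on Ggt5, 178 reads) had a log2 fold change of 0.80 ± 0.47, and 0.44 without Vec 1 and Vec 5. Its overlap was too short for it to count as placed. The remaining row on Ggt5 (ENSMUSG00000092360, 111 bp) held 0 reads. Whether the rows differ because they hold different exons or because the member row is misplaced was not tested.

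The Col5a3 row was at 4.51, 6.94, 2.74, 12.14 and 4.45 CPM in Vec 1 to 5 and at 14.45, 10.08, 23.85 and 3.49 CPM in HVEM-KO 1 to 4. HVEM-KO 1 and 3 were above every Vec tumour, HVEM-KO 2 was between Vec 2 and Vec 4, and HVEM-KO 4 was below all but Vec 3. The means were 6.16 ± 3.66 CPM and 13.0 ± 8.54 CPM, a log2 fold change of 1.08 ± 0.50. It was 0.84 ± 0.64 without Vec 1 and Vec 5, and 0.61 without HVEM-KO 3.

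3 more rows overlapped Col5a3, and all had higher means in HVEM-KO tumours, though that deposited as Angptl6 had too short an overlap to count as placed. The row deposited as A230050P20Rik (ENSMUSG00000038884, 460 bp, 1914 reads) was at 24.2 ± 13.6 CPM in the Vec group against 46.8 ± 24.5 CPM in the HVEM-KO group, a log2 fold change of 0.96 ± 0.45. Here HVEM-KO 1, 2 and 3, at 52.06, 47.53 and 73.52 CPM, were above every Vec tumour, and HVEM-KO 4 was at 14.27 CPM. The row deposited as Angptl6 (ENSMUSG00000038742, 90 bp) had a log2 fold change of 0.94 ± 0.46 and that deposited as Eif3g (ENSMUSG00000070319, 497 bp) one of 0.57 ± 0.48, which was 0.11 ± 0.45 without Vec 1 and Vec 5. Their correlations with the member row were 0.930, 0.897 and 0.829. HVEM-KO 3 was the highest tumour in all 4 rows that overlapped Col5a3.

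**Figure D2:**
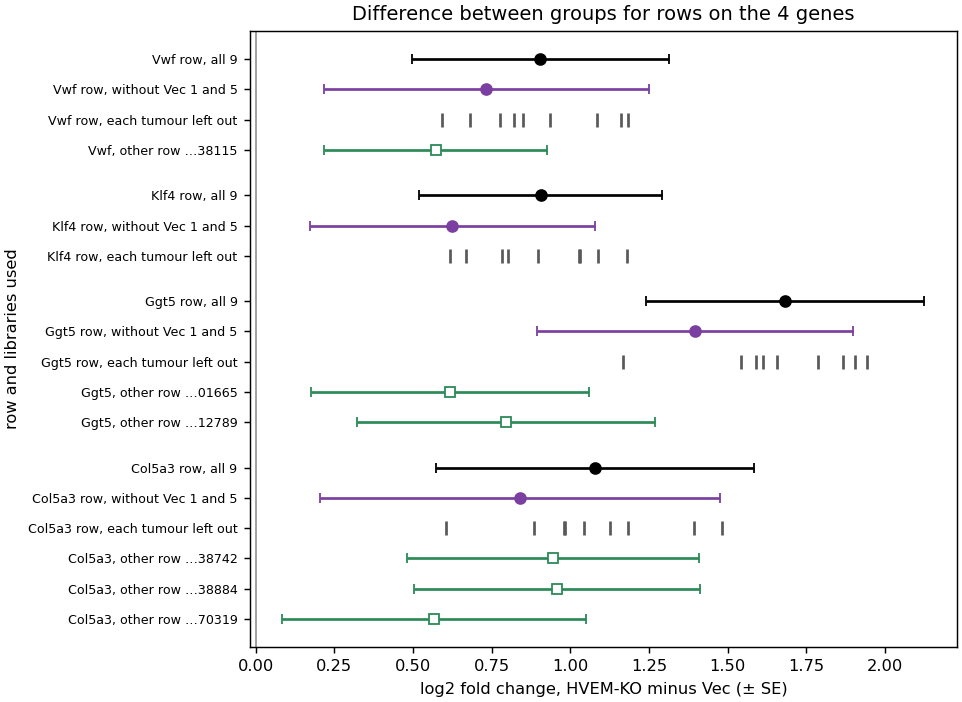
Log2 fold change of HVEM-KO over Vec with its SE for each member row (black: all 9 tumours; purple: without Vec 1 and Vec 5), the values with each tumour left out (ticks), and the other rows on the same genes (green squares). All values are above 0, the Ggt5 member row is at 1.68, and the other 2 rows on Ggt5 are at 0.62 and 0.80.

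Across the whole table the comparison gave few or no calls. With edgeR's quasi-likelihood test and Benjamini-Hochberg adjustment, 0 of 11521 rows passed at an adjusted p of 0.05 (0.0%), the 4 members included, while 1226 rows had an unadjusted p under 0.05. limma voom called 0 rows. DESeq2 called 83 of 15024 rows with an adjusted p (0.552%), the Ggt5 row among them, and edgeR without a low-count filter called 307 of 28852 (1.06%), all 4 members among them. Without Vec 1 and Vec 5, 0 of the 11521 rows passed in edgeR (0.0%), with 803 at an unadjusted p under 0.05. As the members were chosen on this comparison, nothing is read from their place among these rows. The HVEM-KO tumours were all above the Vec tumours for 134 of the 11521 rows (1.16%) and for 0 of the 4 members. An unadjusted p under 0.05 with the higher level in HVEM-KO was found for 575 rows (4.99%) and for 3 of the 4 members, all but Col5a3, a count from the comparison the members were chosen on.

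The 4 rows varied together over the tumours. Of the 6 pairs, all had a positive Pearson correlation of log2 CPM over the 9 tumours, from 0.645 between Ggt5 and Col5a3 to 0.928 between Vwf and Klf4, with a median of 0.779. Spearman's rho ran from 0.467 between Vwf and Ggt5 to 0.800 between Vwf and Col5a3, and was 0.783 between Vwf and Klf4. The rows share libraries and depth, and the members were picked with their pattern in view, so these are descriptions without a p.

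Without Vec 1 and Vec 5 the median r over the remaining 7 tumours was 0.724, and r between Vwf and Klf4 was 0.944. With the group means taken out, the median over 9 tumours was 0.712. HVEM-KO 2 and 3 carried a large part of some pairs. When these 2, the tumours farthest from the median of Vwf, were left out, r between Vwf and Klf4 was 0.736 and that between Vwf and Col5a3 0.735, but r between Vwf and Ggt5 was -0.184. When the same 2, farthest from the median of Klf4, were left out of its pairs, r was 0.304 between Klf4 and Ggt5 and 0.695 between Klf4 and Col5a3. That between Ggt5 and Col5a3 was 0.300 without Vec 5 and HVEM-KO 3, the tumours farthest from the median of Ggt5. The pairs of the Ggt5 row with the other rows thus rest on few tumours. HVEM-KO 3 was the highest tumour for Klf4, Ggt5 and Col5a3, as it was for 14.3% of the 11521 rows. Vec 1 and Vec 5 were the 2 lowest tumours for 1 member, Ggt5, and for 14.3% of rows.

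**Figure D3:**
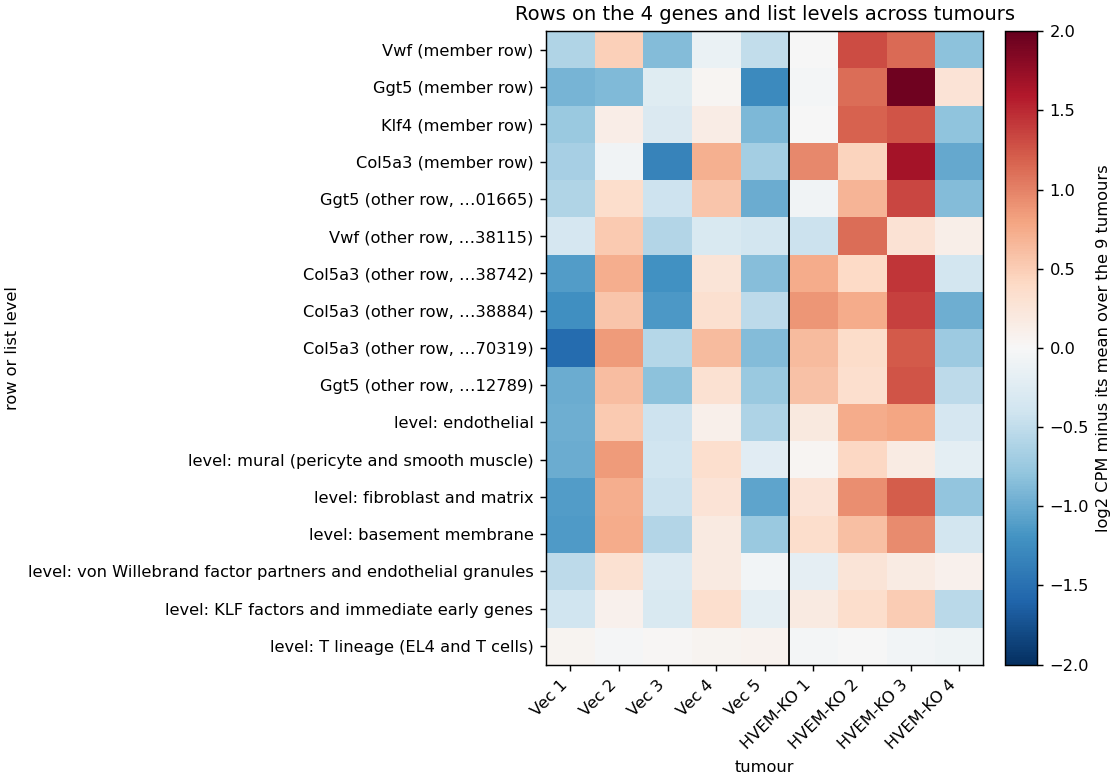
Log2 CPM of each row with reads on the 4 genes (with 0.25 CPM added), and the mean log2 CPM of each marker list with at least 3 tested genes, as the difference from its own mean over the 9 tumours (colour, red above and blue below). HVEM-KO 2 and 3 are red and Vec 1, Vec 3, Vec 5 and HVEM-KO 4 mostly blue for the rows and for the endothelial, fibroblast and basement membrane lists, while the T lineage level lies between 7.17 and 7.33.

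The rows were set beside genes of the cell types they are known from, in lists that do not hold the members. Of 30 endothelial genes 6 were measured, and 6 of 6 had higher means in HVEM-KO tumours, with a median log2 fold change of 0.62 that was 0.32 without Vec 1 and Vec 5. The median over all 11521 rows was 0.01, and 5989 of them had a log2 fold change above 0. With 1 row per placed gene, 1699 of 3189 genes did. Genes of a list were measured in the same 9 tumours, so their counts are not independent results. Tie1, an endothelial receptor kinase, was at 15.7 ± 6.92 CPM in the Vec group against 26.02 ± 12.8 CPM in the HVEM-KO group (log2 fold change 0.74 ± 0.39). Eng, a coreceptor for TGF-beta family ligands, was at 10.7 ± 5.44 and 19.0 ± 8.61 CPM (0.84 ± 0.40), and Notch4 at 10.97 ± 4.19 and 16.7 ± 7.88 CPM. Pecam1, an adhesion molecule of endothelium and leukocytes, was at 126 ± 46.3 and 165 ± 9.99 CPM (0.39 ± 0.24). Robo4 and Ptprb had log2 fold changes of 0.49 ± 0.40 and 0.63 ± 0.52. Without Vec 1 and Vec 5 the log2 fold changes were 0.61 for Notch4, 0.47 for Tie1 and 0.46 for Eng. They were then 0.19 for Robo4, 0.09 for Ptprb and 0.08 for Pecam1. With all 9 tumours, 0 of the 6 genes passed, with edgeR's adjusted p over all rows between 0.481 and 0.650.

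Of 30 fibroblast and matrix genes 14 were measured. All 14 had higher means in HVEM-KO tumours, with a median log2 fold change of 0.66, which was 0.20 without Vec 1 and Vec 5, when 11 of 14 were above 0. Col1a1, the alpha 1 chain of collagen I, was at 1839 ± 924 CPM in the Vec group against 4638 ± 2880 CPM in the HVEM-KO group, and Col1a2 at 3593 ± 2044 and 6382 ± 3337 CPM. Their log2 fold changes were 1.33 ± 0.50 and 0.83 ± 0.45. Col5a1 and Col5a2, the other chains of type V collagen, the former named after its values were seen, had log2 fold changes of 1.24 ± 0.49 and 0.50 ± 0.41. Sparc was at 0.36 ± 0.38, Bgn at 0.42 ± 0.47 and Dcn at 0.33 ± 0.42. Without Vec 1 and Vec 5 those 3 were at -0.02, -0.03 and -0.11. Col5a1 was then at 1.01 but Col5a2 at 0.105, and Col1a1 was at 1.11 and Col1a2 at 0.44. All 4 measured basement membrane genes were at higher means too, with a median of 0.52 (0.17 without Vec 1 and Vec 5). Among them Col15a1, a collagen of vascular and muscle basement membranes, was at 117 ± 64.9 and 208 ± 77.2 CPM (0.83 ± 0.39), and Col4a1 at 84.2 ± 36.5 and 117 ± 38.8 CPM. Of these 18 genes 0 passed over all rows (edgeR).

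Each row was then set beside the level of each of 7 lists that had at least 3 tested genes. The members were picked with their pattern across these tumours in view, so these correlations over 9 tumours are descriptions too and no p is given for them. For scale, r of each row with 3185 single placed genes had a 95th percentile of 0.846 for Vwf and 0.856 for Klf4. It was 0.719 for Ggt5 and 0.798 for Col5a3. A list level averages several genes, so this is a scale only. The Vwf row followed the endothelial level with r = 0.895 and rho = 0.850. Without Vec 1 and Vec 5, which were also the 2 tumours farthest from the median of that level, r was 0.986. The Klf4 row followed the fibroblast and matrix level with r = 0.944 and rho = 0.9, and r was 0.927 without Vec 1 and Vec 5, again the farthest 2.

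Vwf and Klf4 did not separate the 2 cell types, since Vwf followed the fibroblast level with r = 0.896 and Klf4 the endothelial level with r = 0.909. With the group means taken out, r was 0.862 for Vwf with the endothelial level and 0.930 for Klf4 with the fibroblast level. With each tumour left out in turn, r ran from 0.862 to 0.939 for Vwf with the endothelial level and from 0.924 to 0.973 for Klf4 with the fibroblast level.

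The Col5a3 row followed the fibroblast level with r = 0.800, the endothelial level with r = 0.761 and the basement membrane level with r = 0.791, with rho of 0.700, 0.717 and 0.700. These values of r were 0.810, 0.781 and 0.828 without Vec 1 and Vec 5, and with the group means taken out they were 0.748, 0.681 and 0.726. Over all tumours the endothelial and basement membrane values lay below the 95th percentile of r with single genes for this row, 0.798. The fibroblast value lay close to it. The highest correlation of the Col5a3 row with a list was with the level of 7 KLF and immediate early genes (r = 0.919, rho = 0.850). There r was 0.917 without Vec 1 and Vec 5. It was 0.944 without Vec 1 and HVEM-KO 4, the tumours farthest from the median of that level. The same level had r = 0.857 with Vwf, 0.886 with Klf4 and 0.611 with Ggt5. The Ggt5 row followed the lists least closely, with r = 0.702 for the endothelial and 0.694 for the fibroblast level. These r values lay below the 95th percentile for that row, 0.719. They were 0.511 and 0.478 without Vec 1 and Vec 5, 0.591 and 0.544 without HVEM-KO 3, and with the group means taken out 0.545 and 0.622. Without Vec 2 they were 0.896 and 0.883, so they depended on which tumours were used. The mural level was followed less closely, with r = 0.666 for Vwf, 0.611 for Klf4, 0.299 for Ggt5 and 0.515 for Col5a3. For the level of von Willebrand factor partners and granule genes, r was 0.643, 0.581, 0.435 and 0.437 in the same order. Without Vec 1 and Vec 5, the mural values were 0.656, 0.463, -0.125 and 0.438. Those of the partner list were then 0.632, 0.465, 0.209 and 0.339.

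**Figure D4:**
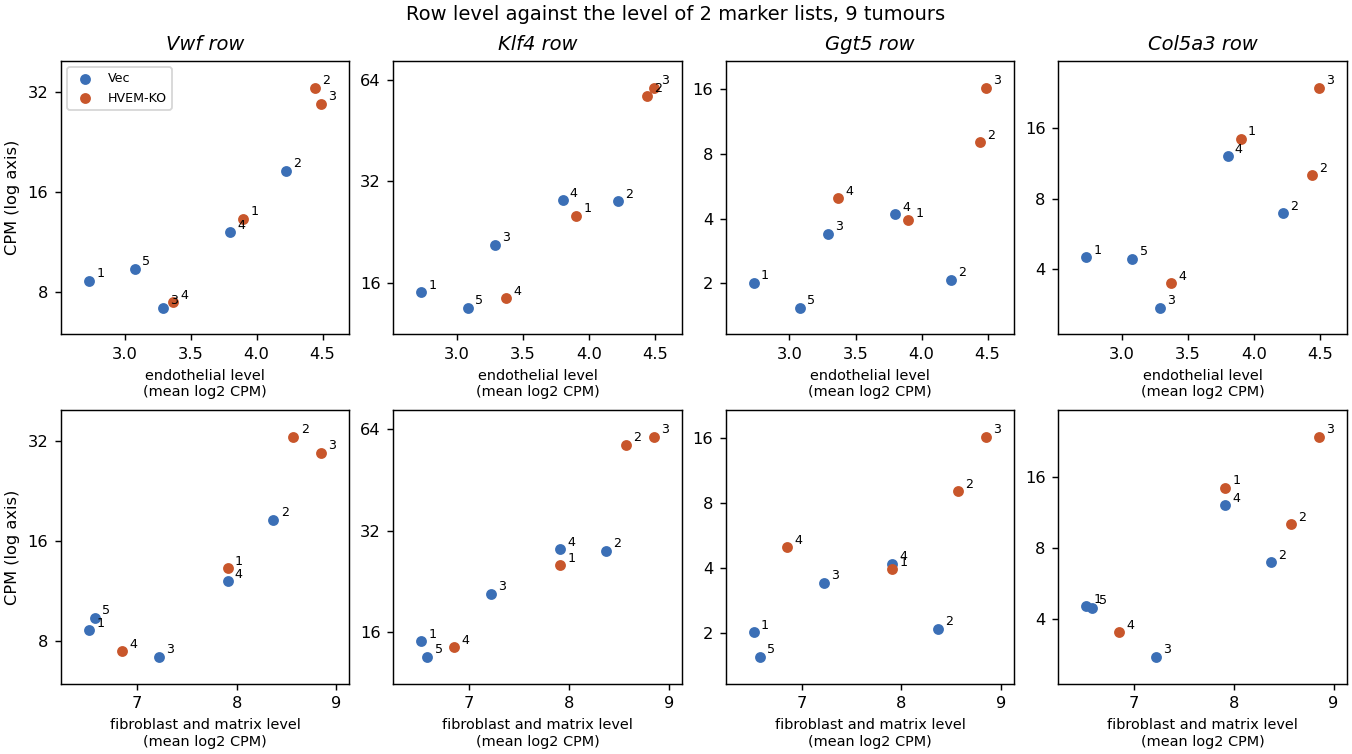
CPM of each row (log2 axis) against the mean log2 CPM of the endothelial list (top) and of the fibroblast and matrix list (bottom) in the 9 tumours, numbered by replicate and coloured by group. Vwf and Klf4 are highest in HVEM-KO 2 and 3, where both levels are highest, and Vec 2 lies below the other tumours of like level for Ggt5.

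Genes that act together with the members gave a mixed pattern. Of the 16 partners of von Willebrand factor and endothelial granule genes 3 were tested. Adamts13, the protease that cleaves von Willebrand factor, was at 8.38 ± 0.760 CPM in the Vec group against 9.27 ± 4.25 CPM in the HVEM-KO group, and its r with Vwf was -0.76. Angpt2, a vessel-destabilising ligand stored in the same granules, had a log2 fold change of -0.31 ± 0.35 and r = 0.55 with Vwf, and Procr, the endothelial protein C receptor, 0.75 ± 0.34 and r = 0.83. These single-gene correlations are descriptions over 9 tumours. Those of Procr and Angpt2 lay below the 95th percentile of r of Vwf with placed genes, 0.846. That of Adamts13 lay below the 5th percentile, -0.739. Platelet genes were hardly measured: 1 of 13 had a placed row and 0 were tested. The part of platelets in the Vwf values was not tested.

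Of 19 KLF and immediate early genes 7 were tested and 4 had higher means in HVEM-KO tumours, with a median of 0.18. Junb had means of 259 ± 50.4 and 331 ± 157 CPM (a difference of 0.35 ± 0.29 in log2, and r = 0.64 with Klf4 and 0.87 with Col5a3), and Ier2 had a log2 fold change of -0.12 ± 0.26. Fos, named after its values were seen, was at 28.2 ± 15.8 and 50.8 ± 22.9 CPM (0.85 ± 0.41, r = 0.88 with Klf4). Klf10 was at 157 ± 12.2 and 147 ± 3.90 CPM (-0.09 ± 0.11, r = -0.07) and Klf13 had r = 0.53 with Klf4. Among 3 tested mural genes, Pdgfrb, the receptor of pericytes, was at 3.28 ± 1.33 and 6.13 ± 3.11 CPM (0.91 ± 0.40) and Cnn1 and Myl9 were at -0.40 ± 0.63 and -0.06 ± 0.43. Of the glutathione and leukotriene genes around Ggt5, Gclc had a log2 fold change of 0.28 ± 0.28 and Gstp1 one of -0.02 ± 0.19. Of these lists 0 members passed over all rows (edgeR).

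The level of the T lineage list, the lineage of the EL4 cells and of host T cells, lay between 7.17 and 7.33 over the tumours. Its r with the 4 member rows ran from -0.564 for Ggt5 to -0.239 for Col5a3. Without Vec 1 and Vec 5 these values ran from -0.275 for Ggt5 to 0.164 for Klf4. With the group means taken out they were all positive, from 0.077 for Ggt5 to 0.255 for Col5a3, so the sign depended on the tumours and groups. Of the 7 genes of this list 4 were lower and 3 higher in mean log2 fold change in HVEM-KO tumours. Their median was -0.41, and -0.10 without Vec 1 and Vec 5. Thy1, Lat, Lck and Zap70 had log2 fold changes from -0.51 to -0.41. Cd8b1, named after its values were seen, had one of 0.95 ± 0.40. The level weighs all genes of the list alike and averages genes that went different ways. It is thus no measure of the EL4 cells alone. Of 15 macrophage and monocyte genes 2 were tested, Mertk with 221 reads and Cd163 with 178. Their log2 fold changes were 0.65 ± 0.38 and 0.76 ± 0.61, and their r with Klf4 0.94 and 0.74. The part of leukocytes in the Klf4 values was not tested.

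The placed genes most like each row, by Pearson's r over the 9 tumours among 3024 genes, were then listed. For Vwf they were Cdr2l (r = 0.980), Cygb, which encodes cytoglobin (r = 0.972), and Nfatc4, a calcium-regulated transcription factor (r = 0.963). For Klf4 they were Podn, a small leucine-rich proteoglycan of the matrix (r = 0.983), Cygb (r = 0.973) and Adamts2, a procollagen protease (r = 0.973). Podn was at 8.59 ± 4.74 CPM in the Vec group against 18.2 ± 13.0 CPM in the HVEM-KO group, and Cygb at 36.5 ± 15.1 and 63.2 ± 39.0 CPM. For Ggt5 they were Col24a1, a fibrillar collagen (r = 0.966), Phf24 (r = 0.895) and Cpd, a carboxypeptidase (r = 0.892), and for Col5a3 they were Nynrin (r = 0.965), H2-Q7, a class Ib gene whose reads a relative can share (r = 0.947), and Ube2h, a ubiquitin-conjugating enzyme (r = 0.947). Without Vec 1 and Vec 5, the lowest of these 12 values of r was 0.831, for Cpd. They are the extremes of many comparisons over 9 tumours and are given as a description.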

How the data were processed

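Per the labels' protocols, TRIzol was used on 9 EL4 tumours and sequencing libraries came from the SMARTER mRNA-Seq kit. The values are raw read counts for each gene identifier, deposited as 1 table. The submitters' processing notes name mm10 as the build. The aligner, counter and annotation are not stated there. The members and lists were chosen with earlier results of these data known.

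Of 56923 identifiers, 52073 were in GENCODE vM21 without version. Exons of each row were moved by up to 2 Mb in steps of 250 bp, and overlap with protein-coding exons was set against row totals in a hidden Markov model (switch penalty 20), whose states are displacements. It gave 95 stretches, each refined in steps of 10 bp within 500 bp by the correlation of log overlap with log reads. A row was placed at a posterior of 0.99 or more, with 100 bp or more on 1 gene and 90% of its coding overlap there, also after a shift of 50 bp, which held for 6170 rows on 4839 genes. The Ggt5 member row failed the last condition and is kept because the members were given. The rows with 90 bp on Col5a3 and 69 bp on Ggt5 failed the condition on overlap, and their values are given as a description. No coordinate was converted.

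Rows were tested with edgeR 4.0.16 (TMM, filterByExpr, robust quasi-likelihood F tests, Benjamini-Hochberg over 11521 rows), in R 4.3.3, with 9 libraries and no covariate. DESeq2 1.42.0 and limma 3.58.1 were alternatives. The placement and the edgeR fit were tested on simulated data. CPM are TMM-normalised, and log2 CPM has a prior count of 2. The SE is the log2 fold change over the square root of F. Correlations with list levels were planned with exact permutation p adjusted by the Benjamini-Hochberg method, and are described without it. Lists used 1 row per gene, that with most reads. Other genes named were the 3 most correlated per member whose log2 CPM averaged 1 or more, and per list the 4 tested genes with most reads, or 6 for the endothelial, mural, fibroblast and basement membrane lists. Exceptions are marked where they stand. PCR copies are not independent molecules, so read numbers show at most the counting precision, which they can overstate, and not the spread between tumours.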

Additional observations from a re-analysis of the deposited data

Results flagged for a closer look

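Of 130 groups of values examined, 2 held a library far from the others, while about 1 in 20 (6.5) would by chance. Among the Vec tumours, Vec 2 was highest for the second row on Vwf, at 8.16 CPM against 3.66 to 4.49 CPM in the others. The gap to the nearest Vec library was 0.814 of the range within that group. HVEM-KO 2 was higher, at 12.43 CPM. Within the same group, Vec 5 was highest for Lck, with a gap of 0.785 of the range (604.53 CPM, against 362.71 to 414.6 CPM). None of the 4 member rows had such a library.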

How the results depend on the processing

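The number of rows called, 0 with edgeR and all libraries, was 307 without a low-count filter, 83 with DESeq2 and 0 to 1 with 1 tumour left out (1 without HVEM-KO 2 and 1 without HVEM-KO 4), and the cause was not tested. The log2 fold changes of the 4 members kept their sign in every alternative run. With 1 tumour left out they ran from 0.59 to 1.18 for Vwf, 0.62 to 1.18 for Klf4, 1.17 (without HVEM-KO 3, a move larger than its SE) to 1.94 for Ggt5 and 0.61 to 1.48 for Col5a3. The median correlation of the members was lowest at 0.665, without HVEM-KO 3, and highest at 0.822, without HVEM-KO 1. Permutation tests of the 28 correlations with lists were run as planned, but the members had been picked on their pattern, so passing is no support. The number under an adjusted p of 0.05 was 12, and was 6 without Vec 1 and Vec 5, 9 with the group means taken out (the Col5a3 row was then under it with none of the endothelial, fibroblast and basement membrane lists), 9 to 15 with 1 tumour left out, and 0 of 36 when list genes were found by deposited identifiers, where rows need not hold the gene. No paired analysis was possible because the groups share no replicate numbers in the labels, and numbers here follow accession order. The fit without Vec 1 and Vec 5 on the rows tested with all libraries was added after seeing the data.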

Other observations

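Cd8b1, the beta chain of CD8, did not follow the rest of the T lineage list. It was chosen after its values were seen. Its mean was 3.14 ± 1.49 CPM in the Vec group against 6.05 ± 2.30 CPM in the HVEM-KO group, and its r over the 9 tumours was 0.86 with Vwf, 0.86 with Klf4, 0.73 with Ggt5 and 0.88 with Col5a3. Lck and Zap70 had values from -0.58 to -0.83 with the same rows, and Thy1 from -0.31 to -0.01. The row on Cd8b1 held 251 reads and lay with 127 bp on its exons, opposite in strand.

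Within the endothelial list the genes differed in how closely they followed Vwf, with r = 0.94 for Tie1, 0.89 for Notch4, 0.87 for Robo4 and 0.86 for Eng, but 0.56 for Ptprb and 0.44 for Pecam1. Col5a3 followed Col5a1 with r = 0.94 and Col1a1 with r = 0.93, and Col5a2 with r = 0.73.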
